A study of Mus musculus with 12 samples.

Results

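The transcripts described here are those of the replication-dependent histone genes, which encode the linker histone H1 and the core histones H2A, H2B, H3 and H4, together with Slbp, whose protein binds the stem-loop at the end of histone mRNAs. Members were chosen by name: every row of the expression table whose symbol begins with Hist1h, Hist2h, Hist3h or Hist4h, and the row of Slbp. This gave 68 members of 23230 rows, of which 67 were histone rows. They comprised 6 H1, 18 H2A, 18 H2B, 12 H3 and 13 H4 rows.

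The study collected mouse oocytes from wild-type (WT) females and from females lacking both Zar1 and Zar2 (Zar1/2-null), which encode oocyte RNA-binding proteins. The knockout alleles were small Cas9 deletions, all mice were on a C57BL6/ICR hybrid background, and each library held 10 oocytes. Growing oocytes came from females of 13.5 days according to the labels (the methods give a slightly younger age). Oocytes that had finished growth and still held their germinal vesicle (GV) came from 21-day-old females 44 h after PMSG, the gonadotropin that drives follicle growth, and ovulated oocytes labelled MII were taken 16 h after hCG, which triggers ovulation. There were 2 libraries in each of the 6 groups of genotype and stage, 12 in all, and no label said whether the replicates came from separate animals, so p-values measure the spread between these samples only. The MII label gives the time of collection. The study describes ovulated Zar1/2-null oocytes as often still in meiosis I, so null oocytes labelled MII are not a stage-matched group, and at that stage genotype and meiotic phase cannot be told apart.

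Most histone mRNAs of dividing cells end in a conserved stem-loop instead of a poly(A) tail, and SLBP carries that stem-loop through processing, translation and decay. Their genes lie in clusters and encode nearly identical proteins, and their transcripts normally rise in S phase. Oocytes do not replicate DNA, but they store SLBP and histone mRNAs that supply chromatin after fertilization, along with oocyte and germ-cell variants such as H1FOO and the testis-type proteins of Hist1h2aa and Hist1h2ba. The libraries were made by Smart-seq2, which primes cDNA on poly(A), so transcripts without a tail are poorly sampled.

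The stem-loop was found by sequence behind most of the members, and the copies behind the leading rows are shown because this is the element that SLBP binds. A hairpin with a perfect stem of 6 bases that opens with GG and a loop of 4 bases that opens with TT was searched on the coding strand in the 150 bases after the stop codon, in the mm9 genome with GENCODE gene models. It stood behind 58 of the 65 coding histone models (89.2%) and behind 11 of 22172 other coding genes (0.0496%). The hairpin began between 21 and 58 bases after the stop codon, with a median of 31. Of 6 distinct versions, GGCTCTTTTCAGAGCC occurred 36 times, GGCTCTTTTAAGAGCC 9 times and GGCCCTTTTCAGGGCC 8 times. Capitals mark the 16 bases of the hairpin and lower case the flanking bases:
Hist1h1a (chr13:23856261-23856276, + strand): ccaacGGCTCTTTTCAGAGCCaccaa
Hist1h2aa (chr13:24026760-24026775, + strand): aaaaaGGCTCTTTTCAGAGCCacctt
Hist1h2ba (chr13:24025599-24025614, - strand): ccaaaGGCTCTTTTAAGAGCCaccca
Hist1h2bc (chr13:23776516-23776531, + strand): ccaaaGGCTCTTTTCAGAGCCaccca
Hist3h2ba (chr11:58762851-58762866, + strand): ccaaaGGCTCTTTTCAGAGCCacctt
Hist1h4h (chr13:23623327-23623342, + strand): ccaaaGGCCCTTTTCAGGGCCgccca
Hist2h3c1 (chr3:96051250-96051265, + strand): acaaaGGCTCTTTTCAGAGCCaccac

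Of the 7 genes shown, only Hist1h1a had a model that ended at the hairpin: those of Hist3h2ba, Hist1h4h and Hist2h3c1 ran 166, 46 and 1166 bases past it, and those of Hist1h2aa and Hist1h2ba stopped before it. The gene model of Hist1h2bc differed from the rest. It held 2 exons, the hairpin lay in the intron and was removed by splicing, and AATAAA, the poly(A) signal, stood within the last 50 bases of the transcript. Of the other coding models, 33 ran on past the hairpin by over 20 bases, 9 ended at it, 15 ended before it, and no hairpin was found in 7, among them the 2-exon model of Hist2h2bb. By position, 53 histone rows lay on chromosome 13, 10 on chromosome 3, 3 on chromosome 11 and 1 on chromosome 6.

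Near-identical copies limited what could be counted, because the authors trimmed reads to 50 bases and kept those that mapped once. In 9 histone rows no 50-base window of the coding sequence occurred once in mm9, and in 40 others under 50% of the windows did. The most repeated window had 19 copies. At least 1 FPKM (a fragment count divided by transcript length and library size) was reached in some library by 1 of those 9 rows, by 14 of those 40 and by 11 of the 18 rows with a larger unique share. The highest row was an exception, since 2.43% of the coding windows of Hist1h2bc were unique, against 52.8% over its whole spliced model, which includes the second exon. Values of rows with few unique windows are therefore uncertain, as are those of Hist2h3c1 and Hist3h2a, whose models overlap Hist2h2aa1 and Trim17 on the same strand. The libraries kept no strand, which adds to the uncertainty of Hist1h2bm, Hist1h4b and Hist2h2ab, whose models overlap others on the opposite strand.

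**Figure D1:**
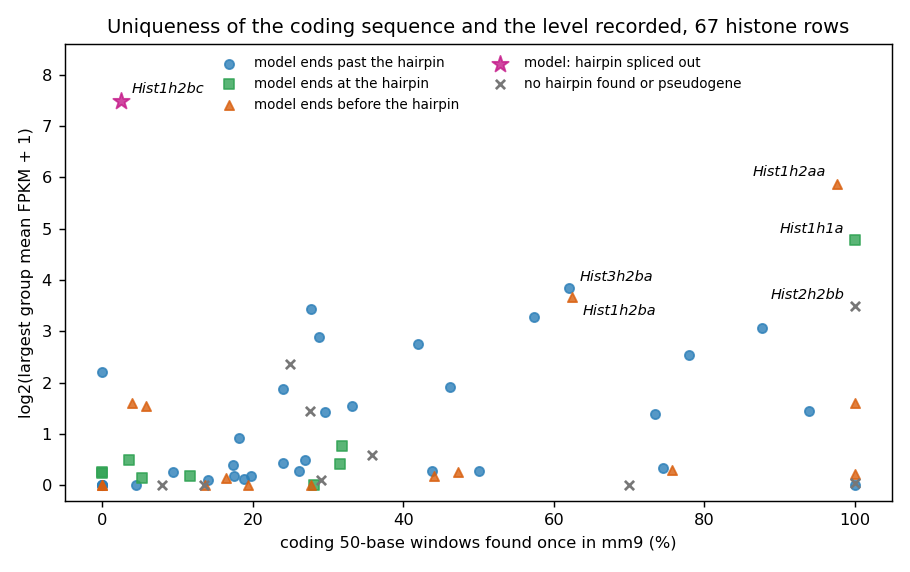
Each point is 1 of the 67 histone rows: the x axis gives the percentage of 50-base coding windows found once in mm9, the y axis log2 of the largest group mean FPKM plus 1, and the symbol where the gene model ends relative to the stem-loop. Hist1h2bc, with 2.43% unique coding windows, stands highest, and the other 5 labelled rows lie to the right at 62.0% or more.

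The counts of rows that reached 1 FPKM were lowest in WT MII oocytes. A group mean of at least 1 FPKM was seen for 21 of the 67 histone rows in WT growing, 21 in WT GV and 5 in WT MII oocytes, and for 20, 19 and 13 rows in Zar1/2-null growing, GV and MII oocytes. With both libraries required to reach 1 FPKM, the counts were 19, 18 and 5 in WT and 17, 16 and 11 in Zar1/2-null oocytes. Of all 23230 rows, the share with such a mean was 45.1%, 43.3% and 25.2% in WT and 44.0%, 39.3% and 27.7% in Zar1/2-null oocytes. Slbp was above 1 FPKM in every library.

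These counts depend on the spike-in scaling. The authors had multiplied each library by an ERCC factor, made from RNA added in equal amounts to every sample, so that values follow RNA per oocyte; the factors recovered from the table were 0.225 and 0.228 for the WT MII libraries and 0.283 and 0.252 for the null MII libraries, against 1 for WT growing oocytes. With the factor divided out, 12 rows reached 1 FPKM in the WT MII group, 19 in the null MII group and 20 to 22 in each of the other 4 groups. Fewer oocyte equivalents and less RNA per oocyte cannot be told apart in such pools.

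**Figure D2:**
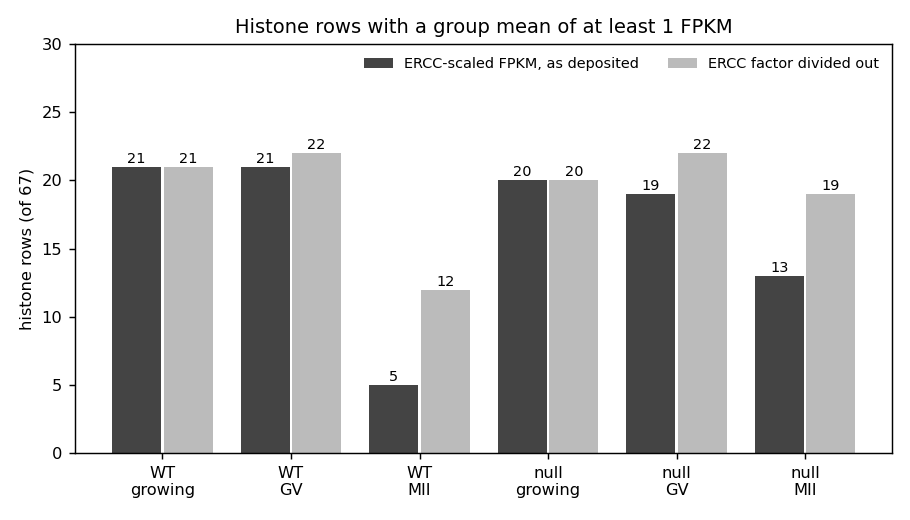
Bars count the histone rows, of 67, whose group mean was at least 1 FPKM in each genotype and stage, dark for the deposited ERCC-scaled values and light with the ERCC factor divided out. The WT MII count is 5 on the scaled values and 12 without the factor, and the Zar1/2-null MII count 13 and 19.

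Many rows carried no signal. In all 12 libraries 15 rows were listed at 0 (8 H2A, 3 H2B, 2 H4, 1 H1 and 1 H3), among them Hist1h1t, which encodes the testis linker histone. A further 26 rows were above 0 but under 1 FPKM in every library, the highest of them being Hist2h3c2 with a largest group mean of 0.507 FPKM. The remaining 26 rows and Slbp entered the tests, along with all other genes that reached 1 FPKM in a library (11502 in total). Differences were fitted across the 12 libraries with limma, a linear model that shares the spread among genes, on log2(FPKM + 1), which understates the change of low genes, and a gene was called at a Benjamini-Hochberg adjusted p under 0.05. A row that passed this minimum through a single high group was bound to differ, so the counts below describe those 26 rows and not the family. Hist1h1d reached 1 FPKM in the null growing libraries alone, and Hist2h3b and Hist1h2ac in WT growing libraries alone, and no result is drawn from their calls; they stay in the counts unless stated. Hist1h3e reached 1 FPKM in WT growing and WT GV libraries alone. The minimum thus favoured its calls between genotypes, which stay in all counts as a description only. Hist1h3a reached 1 FPKM in both null growing libraries and the first WT GV library alone. The minimum thus favoured its calls in growing oocytes and during growth, which also stay in the counts. Shares of all tested genes are given for the ERCC-scaled values with this minimum only. Counts under other scalings are given beside medians, and the shares there were not read.

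The summed histone signal was largely H2B and H2A in every group except WT MII oocytes, where H4 (27.3% and 23.6%) exceeded H2B (19.0% and 21.3%). Most of that H4 signal was Hist1h4d, at 5.34 and 6.73 FPKM of H4 sums of 7.13 and 8.44. Its null MII libraries were lower, at 4.59 and 2.00 FPKM, and it was not called at MII. With the ERCC factor divided out, Hist1h4d was at 15.1 and 6.82 FPKM in WT GV and 23.8 and 29.5 in WT MII libraries. The 67 rows added up to 260.3 and 233 FPKM in the WT growing libraries, 309 and 219.7 in WT GV and 26.1 and 35.7 in WT MII. In Zar1/2-null oocytes the sums were 324 and 271 at the growing stage, 257 and 251 at GV and 147 and 129 at MII. At MII the genotypes did not overlap, and both null libraries were above both WT libraries. With the ERCC factor divided out, the MII sums were 116 and 157 FPKM in WT and 521 and 513 in Zar1/2-null oocytes. Hist1h2bc alone made up 39.0% and 40.3% of the sum in WT growing oocytes, 9.28% and 10.6% at MII, and 58.0% and 60.3% in the null MII libraries. H3 rows contributed 2.34% to 4.72% of the sum in any library.

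**Figure D3:**
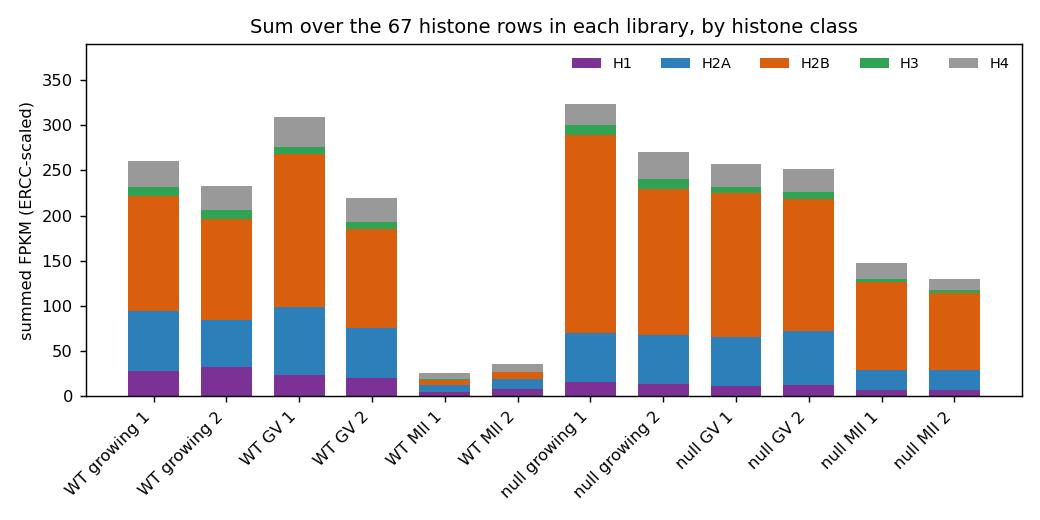
Stacked bars give the summed ERCC-scaled FPKM of the 67 histone rows in each of the 12 libraries, coloured by histone class. The WT MII sums are 26.1 and 35.7 FPKM and the Zar1/2-null MII sums 147 and 129, and H2B is the largest class in every library other than those of WT MII oocytes.

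The targeted genes were read first, as a check of the labels. Zar1l, the row of Zar2, was at 639 and 644 FPKM in WT growing and 533 and 504 in WT GV libraries, against 17.5 and 13.2 and 20.9 and 19.6 in the Zar1/2-null ones. Zar1 was lower in the null by 0.61 (growing) and 1.37 (GV) on the log2 scale, and higher by 1.29 at MII, where WT oocytes held 83.6 and 72.4 FPKM and null oocytes 190 and 194 (adjusted p = 0.0321, 0.000371 and 0.000381, limma, Benjamini-Hochberg adjusted). The small deletions leave most of the Zar1 transcript in place, so its level does not check the label. Zar1l is given for growing and GV oocytes only, so the labels of the MII libraries are not checked here.

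Hist1h2bc, which encodes H2B and has the spliced model with a poly(A) signal, showed the clearest difference. WT libraries held 104.8 and 91.1 FPKM at the growing stage, 131 and 72.6 at GV and 2.42 and 3.80 at MII. Zar1/2-null libraries held 209 and 151, 139 and 127, and 85.5 and 78.1. The genotypes were apart at the growing and MII stages and overlapped at GV. With the ERCC factor divided out, the GV libraries were also apart, at 156 and 104 FPKM in WT and 261 and 218 in null oocytes (log2 difference 0.90, adjusted p = 0.0168, against 0.44, adjusted p = 0.196, in the scaled values, limma, Benjamini-Hochberg adjusted). At MII the null mean of 81.8 ± 5.2 FPKM (SD, n = 2) was 26.3 times the WT mean of 3.11 ± 0.98, a log2 difference of 4.35 ± 0.27 (SE; adjusted p = 2.37e-07, limma, Benjamini-Hochberg adjusted). From GV to MII the WT level fell by 4.60 and the null level by 0.69 on the log2 scale, and the difference between those changes was 3.91 ± 0.38 (adjusted p = 1.6e-05 for the interaction, limma, Benjamini-Hochberg adjusted). The fall in null oocytes rests on the ERCC scaling: without it the value was 0.36, which did not pass the test, whereas the difference between genotypes at MII was 4.41. The fall was also lost without either WT growing library or any of the 4 null GV and MII libraries (-0.76 to -0.63, adjusted p = 0.0524 to 0.136, limma, Benjamini-Hochberg adjusted).

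Hist1h2aa, an H2A gene first known from testis, was the next most abundant row. Its WT values were 60.7 and 45.9 FPKM at the growing stage, 66.1 and 49.7 at GV and 7.76 and 10.3 at MII, and its null values were 43.1 and 43.6, 46.1 and 47.2, and 20.1 and 20.1. At the growing and GV stages the genotype differences were -0.28 ± 0.19 and -0.29 ± 0.19 (log2, SE) and did not pass the test. At MII the null libraries were 2.22 times as high (log2 difference 1.08 ± 0.19, adjusted p = 0.00103, limma, Benjamini-Hochberg adjusted).

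Hist1h2ba, the H2B gene that lies beside Hist1h2aa on chromosome 13, changed in opposite directions. WT values were 5.93 and 4.50 FPKM in growing, 10.6 and 13.0 in GV and 0.486 and 1.15 in MII oocytes. Null values were 0.841 and 0.622, 7.20 and 4.41, and 4.09 and 2.96. The null libraries were below WT at the first pair of stages and above WT at MII. The log2 differences were -1.84 ± 0.24, -0.94 ± 0.24 and 1.33 ± 0.24 (adjusted p = 0.000226, 0.00951 and 0.00127, limma, Benjamini-Hochberg adjusted). The GV call did not survive dividing out the ERCC factor (-0.56, adjusted p = 0.262), nor leaving out the second WT GV library (-0.80, adjusted p = 0.0668) or the second null GV library (-0.64, adjusted p = 0.0795, limma, Benjamini-Hochberg adjusted).

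Hist1h1a, a linker histone gene whose model ends at the stem-loop, was low in null oocytes before maturation. WT libraries held 24.1 and 28.7 FPKM at the growing stage, 19.7 and 15.8 at GV and 4.52 and 7.53 at MII, and null libraries 7.67 and 8.25, 9.48 and 9.95, and 5.43 and 5.43. WT growing oocytes had 3.32 times the null level (log2 difference -1.61 ± 0.20, adjusted p = 0.000155, limma, Benjamini-Hochberg adjusted). At GV the difference was -0.80 ± 0.20 (adjusted p = 0.00788), and it did not pass with the ERCC factor divided out (-0.39, adjusted p = 0.214) or without the first WT GV library (-0.65, adjusted p = 0.0783, limma, Benjamini-Hochberg adjusted). At MII the genotypes overlapped.

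The H2B genes Hist3h2ba and Hist2h2bb were both lower in null GV oocytes. Hist3h2ba was at 7.70 and 8.85 FPKM in WT growing, 15.4 and 11.3 in WT GV and 0.789 and 0.875 in WT MII oocytes, and at 4.74 and 6.46, 7.24 and 6.62, and 3.18 and 2.21 in null oocytes. Hist2h2bb was at 6.47 and 6.37, 10.7 and 9.72, and 1.14 and 1.44 in WT and at 3.93 and 3.88, 4.17 and 4.95, and 1.85 and 0.956 in null oocytes. At GV the null libraries lay below WT in both genes. The log2 differences there were -0.84 ± 0.19 for Hist3h2ba and -1.01 ± 0.17 for Hist2h2bb (adjusted p = 0.00508 and 0.00102, limma, Benjamini-Hochberg adjusted), of which the first was lost with the ERCC factor divided out (-0.44, adjusted p = 0.147) and without the first WT GV library (-0.63, adjusted p = 0.0626). At MII Hist3h2ba was higher in the null by 1.00 ± 0.19 (adjusted p = 0.00184, limma, Benjamini-Hochberg adjusted), and the Hist2h2bb libraries overlapped.

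**Figure D4:**
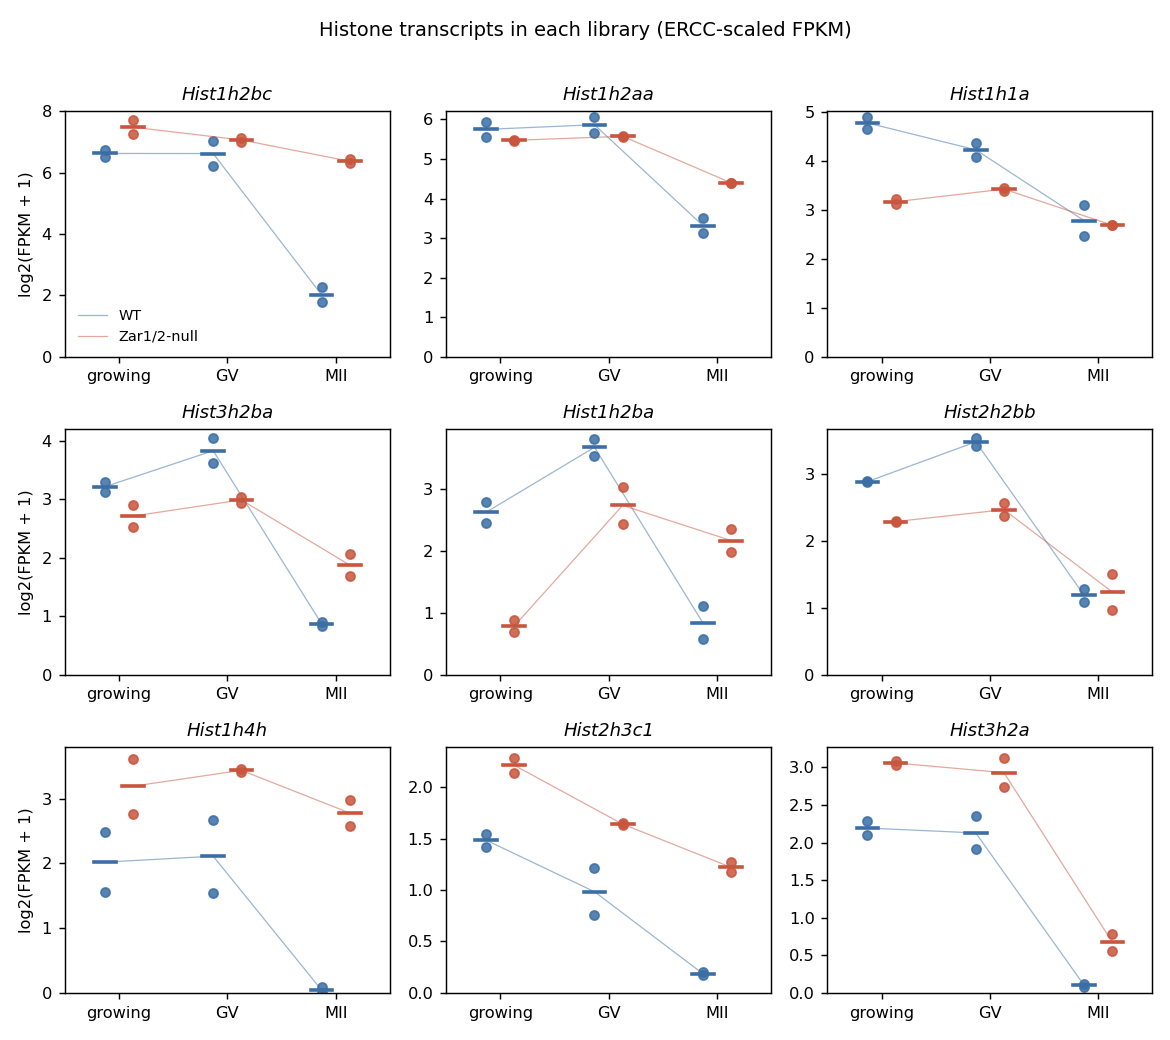
Each panel gives log2(FPKM + 1) of 1 gene on its own scale, with a point for each library (2 per group), a bar at the group mean and thin lines joining the means, blue for WT and red for Zar1/2-null oocytes. The panels show the 6 rows with a group mean of at least 10 FPKM, then the 3 rows called higher in the null at all 3 stages, and the WT points at MII are the lowest of their panel in 6 of the 9, the others being Hist1h1a, Hist1h2ba and Hist2h2bb.

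Hist1h4h (H4), Hist2h3c1 (H3) and Hist3h2a (H2A) were higher in null than in WT oocytes at all 3 stages. Hist1h4h was at 1.95 and 4.57 FPKM in WT growing, 5.38 and 1.92 in WT GV and 0 and 0.0632 in WT MII libraries, and at 5.81 and 11.2, 9.98 and 9.67, and 6.87 and 4.97 in null libraries. The null libraries lay above WT at each stage. The log2 differences were 1.17 ± 0.39, 1.33 ± 0.39 and 2.73 ± 0.39 (adjusted p = 0.0354, 0.0173 and 0.000217, limma, Benjamini-Hochberg adjusted). The steps between low values in the table show the fragments behind them, which for Hist1h4h at MII were 0 and 1 in WT and 74 and 74 in null libraries (the smallest whole numbers that fitted the steps). With so few WT fragments the size of the MII difference depends on the pseudocount of 1 FPKM. The relative depths recovered in this way differed by at most 1.35 times among the 12 libraries.

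Hist2h3c1 means were 1.80, 1.00 and 0.138 FPKM in WT and 3.64, 2.12 and 1.33 in null growing, GV and MII oocytes. Its log2 differences were 0.73 ± 0.15, 0.66 ± 0.15 and 1.03 ± 0.15 (adjusted p = 0.00388, 0.00568 and 0.000305, limma, Benjamini-Hochberg adjusted). Hist3h2a means were 3.58, 3.42 and 0.0720 FPKM in WT and 7.33, 6.68 and 0.600 in null oocytes, with log2 differences of 0.87 ± 0.18, 0.80 ± 0.18 and 0.57 ± 0.18 (adjusted p = 0.00351, 0.00444 and 0.0289, limma, Benjamini-Hochberg adjusted). All 3 genes also passed at each stage, in the same direction, when the ERCC factor was divided out.

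In growing oocytes 6 of the 26 tested histone rows were higher and 5 were lower in the null, where 10.6% of all tested genes were called higher and 24.4% lower (limma, Benjamini-Hochberg adjusted p under 0.05). Besides the genes above, Hist1h3a was called higher, at 0 in both WT libraries and 1.94 FPKM in the null, and Hist1h3e lower, at 1.71 FPKM in WT and 0 in both null libraries. Hist1h3e entered the test through WT libraries alone, so its lower call was favoured by the minimum. Hist1h3a entered through the null growing libraries and the first WT GV library alone, so the minimum favoured its higher call. The means of Hist1h1d were 0.575 FPKM in WT and 1.61 in null growing oocytes and those of Hist2h3b 1.93 and 0.318, but each entered the test through its high group. Without the rows that passed the minimum through a single group the counts were 5 higher and 4 lower of 23. Hist1h3a was still among the higher and Hist1h3e among the lower. The median log2 difference was -0.10 over the 26 rows and -0.16 over all tested genes. With the ERCC factor divided out the split was 7 higher and 4 lower, and Hist2h2bb was no longer called (-0.36, adjusted p = 0.216, limma, Benjamini-Hochberg adjusted). The median was then 0.03 over the 26 rows and 0.08 over all tested genes. Leaving out single libraries ended 3 of the 11 calls. Hist1h2bc was lost without either WT growing library or the first null one (log2 differences of 0.62 to 0.96, adjusted p = 0.0766 to 0.173), and Hist2h2bb without any of the 4 growing libraries (-0.61 to -0.59, adjusted p = 0.0666 to 0.0946, limma, Benjamini-Hochberg adjusted). Hist1h4h was lost without the first WT or the second null growing library (0.71 and 0.75, adjusted p = 0.278 and 0.276), and, through the shared estimate of the spread, without either WT MII or either null GV library (1.17, adjusted p = 0.0527 to 0.0544, limma, Benjamini-Hochberg adjusted).

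In GV oocytes 3 histone rows were higher and 8 lower in the null, against 2.83% and 40.6% of all tested genes (limma, Benjamini-Hochberg adjusted p under 0.05). The lower rows included Hist1h4i, at 4.48 FPKM in WT and 1.37 in null oocytes (log2 difference -1.24 ± 0.24), Hist1h3e (1.49 and 0.112 FPKM), Hist1h1c (2.93 and 1.37) and Hist4h4 (2.04 and 1.08). Of these, Hist1h3e reached 1 FPKM in WT libraries alone, so its call is a description only. The median was -0.25 over the 26 rows and -0.38 over all tested genes. Most of the lower calls depended on the scaling: with the ERCC factor divided out 4 rows were higher and 3 lower, and with each library scaled to its median gene 4 were higher and 1 lower. The medians under these scalings were 0.09 and 0.13 over the 26 rows and -0.03 and 0.07 over all tested genes. Leaving out single libraries ended 6 of the 11 calls. Besides those of Hist1h1a, Hist1h2ba and Hist3h2ba given above, Hist1h4h was lost without the second WT or either null GV library (0.76 to 1.35, adjusted p = 0.0623 to 0.159, limma, Benjamini-Hochberg adjusted). Hist1h1c was lost without either WT GV, the first null GV or any MII library (-0.94 to -0.40, adjusted p = 0.0501 to 0.285), and Hist4h4 without the first WT GV library or any null or MII library (-0.53 to -0.20, adjusted p = 0.0557 to 0.386, limma, Benjamini-Hochberg adjusted).

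In MII oocytes 10 histone rows were higher and 0 lower in the null, where 21.5% of all tested genes were higher and 10.3% lower (limma, Benjamini-Hochberg adjusted p under 0.05); at an unadjusted p under 0.05 the counts were 12 and 0. By class the rows were 3 of 4 tested H2A, 4 of 6 H2B, 1 of 6 H3, 2 of 7 H4 and 0 of 3 H1. The rows not yet given were Hist1h2bk (H2B, 0.0489 FPKM in WT and 1.23 in null oocytes), Hist1h4c (H4, 0.667 and 3.02) and Hist2h2ac (H2A, 0.233 and 1.88). The median log2 difference was 0.53 over the 26 rows and 0.06 over all tested genes. With the ERCC factor divided out 14 rows were higher and 0 lower, and with median scaling 14 were higher and 2 lower. The medians under these scalings were 0.99 and 0.89 over the 26 rows and -0.01 and -0.09 over all tested genes. Leaving out single libraries ended 3 of the 10 calls. Hist1h2bk was lost without either WT or the first null MII library (0.72 to 1.12, adjusted p = 0.0710 to 0.185), Hist2h2ac without the first WT MII library (0.97, adjusted p = 0.0626) and Hist3h2a without any of the 4 MII libraries (0.46 to 0.69, adjusted p = 0.0515 to 0.195, limma, Benjamini-Hochberg adjusted).

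**Figure D5:**
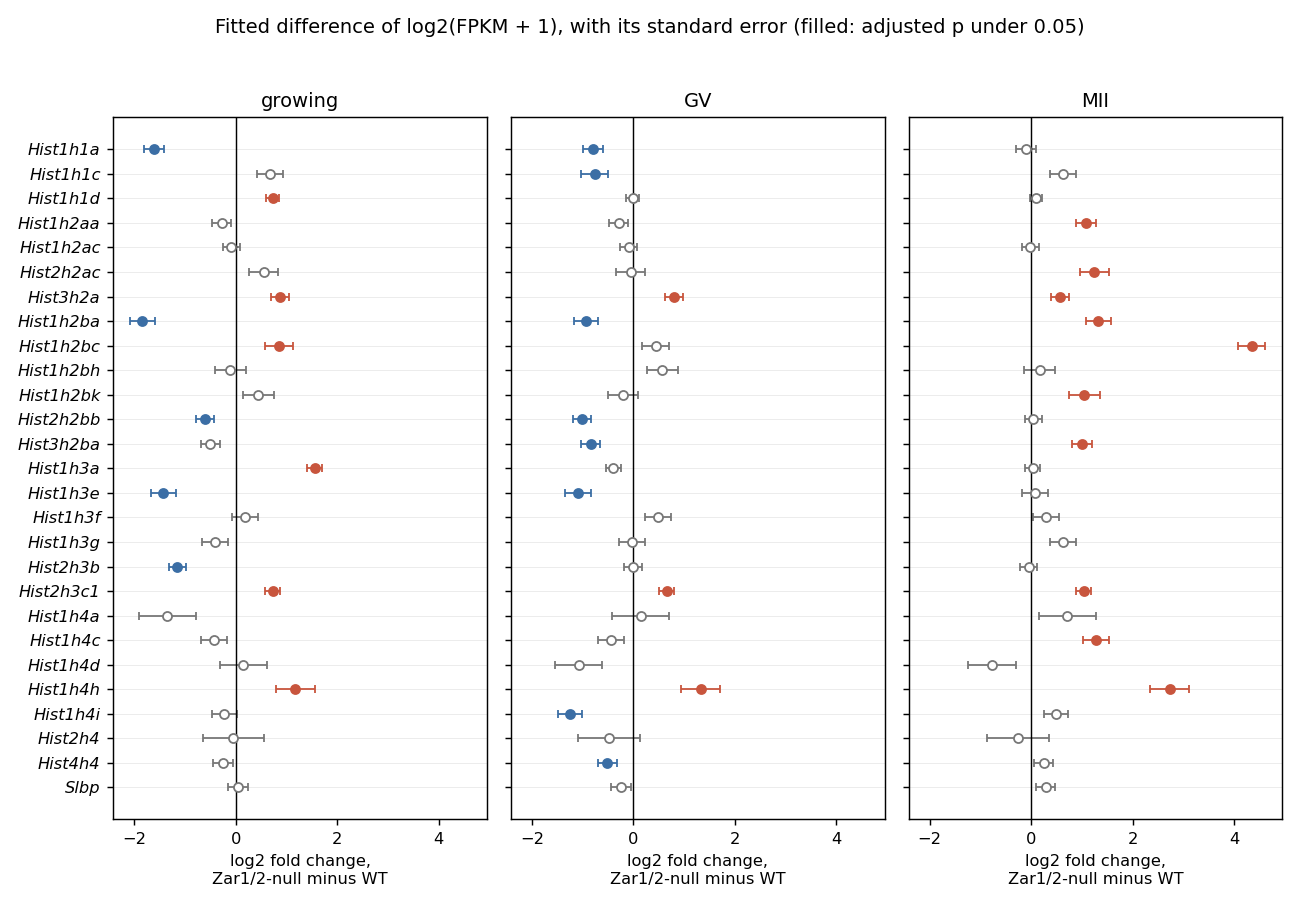
Points give the fitted log2 difference, Zar1/2-null minus WT, of the 26 tested histone rows and Slbp in growing, GV and MII oocytes, with bars of 1 standard error; filled points passed the test (red higher, blue lower in the null). At MII Hist1h2bc stands at 4.35 and Hist1h4h at 2.73, and 10 rows are filled on the higher side and 0 on the lower.

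Most tested histone rows were lower after maturation in WT oocytes, as were most genes. From GV to MII 22 of 26 rows fell and 0 rose, where 93.4% of all tested genes fell and 0.104% rose (limma, Benjamini-Hochberg adjusted p under 0.05; 22 and 0 histone rows at an unadjusted p under 0.05). The median was -1.49 over the 26 rows and -1.28 over all tested genes. With the ERCC factor divided out, which moved the median of all genes to -0.43, 17 rows fell and 1 rose, and with median scaling 12 fell and 4 rose. The medians of the 26 rows were then -1.08 and -0.32, and that of all tested genes was 0.14 with median scaling. Hist1h2bc, Hist3h2ba, Hist1h2ba and Hist1h2aa fell by 4.60, 2.95, 2.83 and 2.55 on the log2 scale, of which the last was 0.023 with median scaling.

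In null oocytes 13 of 26 rows fell from GV to MII and 0 rose, where 68.7% of all tested genes fell and 0.209% rose (limma, Benjamini-Hochberg adjusted p under 0.05; 14 and 0 rows at an unadjusted p under 0.05). The median was -0.58 over the 26 rows and -0.72 over all tested genes. Without the ERCC scaling 3 rows fell and 0 rose, and with median scaling 1 fell and 11 rose. The medians under these scalings were -0.10 and 0.28 over the 26 rows and -0.28 and 0.14 over all tested genes. Hist3h2a fell under all 3 scalings, by 2.26 on the log2 scale in the scaled values. Leaving out the second null MII library brought the falling rows to 8.

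The change from GV to MII itself was compared between genotypes with the interaction. It was more positive in the null for 12 of 26 rows and more negative for 0, where 33.9% of all tested genes were called more positive and 0.643% more negative (limma, Benjamini-Hochberg adjusted p under 0.05; 14 and 0 rows at an unadjusted p under 0.05). They included 5 of the 6 tested H2B rows, of which Hist1h2bc (3.91), Hist1h2ba (2.27) and Hist3h2ba (1.84) had the largest log2 differences. Of the 12, Hist1h1c, Hist1h3e, Hist1h4i, Hist2h2bb and Hist4h4 were called lower in null GV oocytes and were not called at MII. In those rows the smaller fall in the null began from a lower GV level. Hist2h2bb means, for example, were 10.2 FPKM in WT and 4.56 in null GV oocytes, and 1.29 and 1.40 at MII. The median was 0.74 over the 26 rows and 0.48 over all tested genes, and the counts were 10 and 0 without the ERCC scaling. Without it the medians were 0.78 over the 26 rows and 0.03 over all tested genes. These comparisons share the MII and GV libraries with those above.

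During growth fewer rows changed. From growing to GV, 6 rows rose and 2 fell in WT oocytes (1 fell without the rows that passed the minimum through a single group), where 2.77% of tested genes rose and 28.7% fell (limma, Benjamini-Hochberg adjusted p under 0.05). The 6 were Hist1h2ba, Hist1h2bk, Hist2h2bb and Hist3h2ba (H2B), Hist1h3a and Hist2h2ac, and 5 rose and 0 fell with the ERCC factor divided out. The median without the factor was 0.31 over the 26 rows and 0.02 over all tested genes. Few fragments lay behind Hist1h2bk, from 0 and 0 to 5 and 6, and Hist1h3a, from 0 and 0 to 5 and 4. The only WT library of Hist1h3a to reach 1 FPKM was the first at GV, so the minimum favoured its rise. The number that rose was 3 without any 1 of the 4 WT growing and GV libraries. Hist1h2ba was lost without the second WT growing or the second WT GV library (0.88 and 0.92, adjusted p = 0.0840 and 0.0944), and Hist3h2ba without either WT growing or the first WT GV library (0.40 to 0.70, adjusted p = 0.0869 to 0.180, limma, Benjamini-Hochberg adjusted). Hist2h2bb was lost without any of those 4 libraries (0.53 to 0.66, adjusted p = 0.0862 to 0.114), and Hist2h2ac without the first WT growing library, either WT GV library or any null growing or MII library (0.35 to 0.87, adjusted p = 0.0522 to 0.287, limma, Benjamini-Hochberg adjusted). In the null without the scaling 7 rows rose and 4 fell, with medians of 0.35 over the 26 rows and -0.08 over all tested genes. In the scaled values 2 rows rose and 5 fell in the null, where 4.76% of tested genes rose and 55.9% fell. Of the pair that rose, Hist1h2bk was lost without the second null growing or the second null GV library (0.51 and 0.59, adjusted p = 0.181 and 0.170, limma, Benjamini-Hochberg adjusted). Hist1h2ba, which increased in both genotypes, went from 0.731 to 5.81 FPKM in the null (log2 difference 1.95 ± 0.24, adjusted p = 7.0e-05, limma, Benjamini-Hochberg adjusted). The interaction of genotype with growth was called more positive in the null for 1 row and more negative for 3 (limma, Benjamini-Hochberg adjusted p under 0.05), where 2.58% and 11.3% of tested genes were. Without the rows that passed the minimum through a single group, Hist1h1c and Hist1h3a were left, both more negative. Hist1h3a reached 1 FPKM only in the null growing libraries and the first WT GV library. High values in those groups give this sign, so the minimum favoured its call. Hist1h1c was lost with the ERCC factor divided out (-1.47, adjusted p = 0.0722) and without the second WT growing, either WT GV, the first null growing or the first null GV library (-1.62 to -1.08, adjusted p = 0.0580 to 0.0939, limma, Benjamini-Hochberg adjusted).

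Slbp had far higher FPKM values than any histone row. WT libraries held 1318 and 1223 FPKM at the growing stage, 1120 and 834 at GV and 643 and 603 at MII, and null libraries 1473 and 1171, 733 and 919, and 816 and 708. The genotypes overlapped at the growing and GV stages, and at MII the null libraries were higher by 0.29 ± 0.19 on the log2 scale, which did not pass the test (adjusted p = 0.316, limma, Benjamini-Hochberg adjusted). In WT oocytes Slbp fell from GV to MII by 0.63 ± 0.19 (adjusted p = 0.00887, limma, Benjamini-Hochberg adjusted). That call was lost without the first WT GV library (-0.42, adjusted p = 0.0963, limma) and reversed with the ERCC factor divided out, where Slbp rose by 1.12. In null oocytes it fell from growing to GV by 0.68 ± 0.19 (adjusted p = 0.0111), but not past the test without the first null growing or first null GV library (adjusted p = 0.0909 and 0.0954), nor with the ERCC factor divided out (-0.12, adjusted p = 0.470, limma, Benjamini-Hochberg adjusted), and the value was 0.086 with median scaling. Relative to the summed histone rows, Slbp was 3.63 to 5.25 times as high in WT growing and GV libraries, 24.6 and 16.9 times in WT MII and 2.85 to 5.54 times in the null libraries. These are ratios of recorded FPKM and not of molecules. Histone transcripts without a tail are poorly sampled, and reads shared by near-identical copies were dropped.

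The factors that make and use the stem-loop were read from lists of genes. Of 14 genes of the histone locus body and of histone pre-mRNA processing, 3 were higher and 4 lower in null growing oocytes, 0 and 9 in null GV and 1 and 3 in null MII oocytes (limma, Benjamini-Hochberg adjusted p under 0.05; at GV 0 and 10 at an unadjusted p under 0.05). These were 21.4% higher and 28.6% lower in growing, 64.3% lower at GV and 7.14% higher and 21.4% lower at MII, beside 10.6% and 24.4%, 40.6%, and 21.5% and 10.3% of all tested genes. Casp8ap2, a histone locus body protein, and Cpsf2, a subunit of the cleavage complex, were lower at the growing stage by 0.83 and 1.03 on the log2 scale and at GV by 0.90 and 0.91. Lsm10, a component of the U7 snRNP that directs histone 3′ end cleavage, was at 1.41 and 1.51 FPKM in WT MII libraries and 37.5 and 29.6 in null MII libraries (log2 difference 3.81, adjusted p = 5.92e-09, limma, Benjamini-Hochberg adjusted). Npat, the transcriptional coactivator of histone genes, and Pou2f1, which binds H2B promoters, were lower in null MII oocytes.

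Of 14 tested genes for the translation and turnover of stem-loop mRNAs, 1 was higher and 3 lower in null growing oocytes, 0 and 3 in null GV and 8 and 0 in null MII oocytes (limma, Benjamini-Hochberg adjusted p under 0.05; at MII 9 and 1 and at GV 0 and 5 at an unadjusted p under 0.05). At MII that was 57.1% higher beside 21.5% of all tested genes, whereas the lower share was 21.4% in growing oocytes and at GV, beside 24.4% and 40.6%. The most abundant of the 8 were Lsm5, Lsm3, Lsm7 and Lsm2, subunits of the ring that marks deadenylated mRNA for decay, which were higher by 1.84, 1.45, 1.01 and 2.74 on the log2 scale. Of 15 genes of the general poly(A) machinery, 3 were higher and 2 lower in null growing, 0 and 6 in null GV and 1 and 2 in null MII oocytes. Their lower share at GV, 40.0%, was near the 40.6% of all tested genes.

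Of 12 genes for replacement histone variants, most of which are made outside S phase from polyadenylated mRNA, 2 were higher and 1 lower in null growing, 1 and 3 in null GV and 4 and 3 in null MII oocytes (limma, Benjamini-Hochberg adjusted p under 0.05). The shares were 25.0% lower at GV, under the 40.6% of all tested genes, and 33.3% higher and 25.0% lower at MII, beside 21.5% and 10.3%. In growing oocytes they were 16.7% higher and 8.33% lower, beside 10.6% and 24.4%, and at GV 8.33% were higher, beside 2.83%. At MII H1foo (0.75), H3f3a (0.83) and H2afx (1.92) were higher and H2afz lower by 2.07 on the log2 scale.

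Markers of the oocyte and of the surrounding follicle cells were read beside these results. All 13 oocyte markers reached a mean of 1 FPKM in every group except WT MII, where 12 did. At MII and in the maturation interaction they moved in the direction of the histone rows. In null MII oocytes 9 of 13 were higher and 1 lower (69.2% and 7.69%, beside 21.5% and 10.3% of all tested genes, median log2 difference 0.92). In the maturation interaction 8 were more positive and 0 more negative (61.5%, beside 33.9%, median 1.20). Of the tested histone rows 38.5% were higher at MII and 46.2% more positive in that interaction. From growing to GV the markers parted from the histone rows. In WT 8 markers fell and 0 rose (61.5% fell, beside 28.7% of all tested genes), and in the null 10 fell and 1 rose (76.9%, beside 55.9%). Marker medians were -0.83 and -1.09, against 0.01 and 0.01 for the histone rows. Of 14 granulosa and cumulus markers, the summed level was 29.3 and 32.5 FPKM in WT growing, 17.5 and 20.1 in WT GV and 5.21 and 5.52 in WT MII libraries, and 14.2 and 22.4, 13.6 and 15.7, and 7.33 and 8.58 in null libraries. Cyp19a1, which encodes aromatase, led the list in every group other than null growing oocytes, where Nr5a2 did, Foxl2 and Amh were at or near 0 in every library, and Ptx3 was listed at 0 in all 12. Granulosa cells divide and express histone genes. The marker sum was lower in null than in WT growing and GV oocytes and higher at MII. Cyp19a1 means at MII were 3.93 FPKM in WT and 6.44 in null oocytes. Only 5 of the 14 markers were tested. By limma (Benjamini-Hochberg adjusted p under 0.05) 1 was higher and 3 lower in null growing oocytes. The counts were 1 and 2 at GV and 0 and 0 at MII, where the median log2 difference was 0.02. The part of either marker list in the histone results was not tested.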

How the data were processed

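RNA-seq was done on 12 libraries of 10 pooled oocytes, 2 for each genotype and stage. The table holds FPKM values, which the authors made by trimming reads to 50 bases, mapping them to mm9 with TopHat 2.1.1, keeping unique alignments and running Cufflinks 2.2.1 on UCSC gene models. They then multiplied each library by its ERCC factor, the ERCC share of the WT growing library of the same replicate divided by its own. Read totals are not in the table, so precision was judged by replicates and recovered fragments. Steps between low values gave relative depth, and whole fragments for 29 histone rows (tolerance 0.08). Sequences and 50-base windows came from the mm9 genome and GENCODE models, which can differ from the UCSC ones.

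Genes reaching 1 FPKM in at least 1 library were tested as log2(FPKM + 1) with limma 3.58.1 (R 4.3.3) with 1 term per group, moderated variances with an intensity trend, and Benjamini-Hochberg adjustment over 11502 genes. The script was tested on simulated data. Tables were made in Python 3.11.15. The members and lists were chosen with earlier results of these data known. Genes named with values are Slbp, rows with a group mean of at least 10 FPKM, rows called between genotypes, and at most 4 called genes of each other list; rows named outside these rules were picked after their values were seen. Same-numbered libraries deviated together with correlations of 0.163 (growing), -0.117 (GV) and 0.0872 (MII), so the numbers were not taken to pair the samples. The ERCC scaling itself joined libraries by that number. The alternatives were other scalings, another pseudocount, other filters, a replicate block, no trend, fits on the compared groups alone and leaving out each library.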

Additional observations from a re-analysis of the deposited data

Results flagged for a closer look

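These results were picked out because the change between stages differed between WT and Zar1/2-null oocytes by the interaction term of limma (Benjamini-Hochberg adjusted p under 0.05). For maturation, the change from GV to MII was more positive in the null for the H2B rows Hist1h2bc (log2 difference 3.91, adjusted p = 1.6e-05), Hist1h2ba (2.27, adjusted p = 0.000498), Hist3h2ba (1.84, adjusted p = 0.000425), Hist1h2bk (1.25, adjusted p = 0.0424) and Hist2h2bb (1.06, adjusted p = 0.00740). Among H2A rows it was so for Hist1h2aa (1.37, adjusted p = 0.00275) and Hist2h2ac (1.30, adjusted p = 0.0262), among H4 rows for Hist1h4i (1.73, adjusted p = 0.00274), Hist1h4c (1.73, adjusted p = 0.00408) and Hist4h4 (0.76, adjusted p = 0.0469), and among the rest for Hist1h1c (1.39, adjusted p = 0.0146) and Hist1h3e (1.17, adjusted p = 0.0273, limma). The value of Hist1h3e is a description only, because that row reached 1 FPKM in WT growing and WT GV libraries alone. Hist1h1c, Hist1h3e, Hist1h4i, Hist2h2bb and Hist4h4 were not called between genotypes at MII. They were called lower in null GV oocytes, so their values do not show a higher null level at MII.

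With the ERCC factor divided out, Hist2h2bb (0.50, adjusted p = 0.263), Hist1h3e (adjusted p = 0.0573) and Hist4h4 (adjusted p = 0.0586, limma) did not pass. With median scaling Hist1h2aa (0.49, adjusted p = 0.142), Hist2h2bb (0.24, adjusted p = 0.555), Hist1h3e (adjusted p = 0.0690) and Hist4h4 (adjusted p = 0.0563, limma) did not pass. Leaving out single libraries ended 5 of these calls. Hist1h1c was lost without the second WT GV or the first null GV library (1.22 and 1.03, adjusted p = 0.0554 and 0.0550, limma). Hist1h2bk was lost without any WT library or the first null GV or first null MII library (0.89 to 1.32, adjusted p = 0.0607 to 0.160, limma). Hist1h3e was lost without the second WT GV, either WT MII, the second null GV or either null MII library (0.70 to 1.24, adjusted p = 0.0539 to 0.0849, limma). Hist2h2ac was lost without either WT GV, the first WT MII, the first null GV or either null MII library (1.03 to 1.35, adjusted p = 0.0608 to 0.114, limma). Hist4h4 was lost without the first WT GV library, either WT MII library or any null library (0.46 to 0.78, adjusted p = 0.0546 to 0.148, limma).

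For growth, the change from the growing stage to GV was more negative in the null for Hist1h1c (-1.44, adjusted p = 0.0283) and Hist1h3a (-1.94, adjusted p = 0.000667, limma). Hist1h3a reached 1 FPKM only in the null growing libraries and the first WT GV library, so the minimum favoured this sign. It also rested on few fragments. These were 0 and 0 in WT growing, 5 and 4 in WT GV, 8 and 12 in null growing and 2 and 4 in null GV libraries. Hist1h1c did not pass with the ERCC factor divided out (-1.47, adjusted p = 0.0722), with median scaling (-1.09, adjusted p = 0.169) or with a pseudocount of 0.1 FPKM (adjusted p = 0.0526, limma). The fitted values of Hist1h1d (-0.74) and Hist2h3b (1.14) are given as a description only, because each reached 1 FPKM in the libraries of a single growing group and so was bound to differ; both were also lost under these 3 settings.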

How the results depend on the processing

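Counts here are of the 27 tested members, Slbp included. Of 100 calls over the 9 comparisons, 67 held, 27 were lost and 6 changed sign without the ERCC scaling, and 55, 30 and 15 with median scaling. With a pseudocount of 0.1 FPKM 91 held, with no filter 76, with a fit on the compared groups alone 86, and without a trend 97. Leaving out each library in turn, 64 held throughout. Depth limits the rows of few fragments, such as Hist1h4h in WT MII oocytes, Hist1h3e in null oocytes and Hist1h3a and Hist1h2bk in WT growing oocytes.

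With a mean of at least 5 FPKM required, fewer rows were tested: 2 members were higher and 1 lower in null growing oocytes, 1 and 2 at GV and 4 higher at MII; 6 fell from GV to MII in WT and 4 in the null; 1 rose and 1 fell during growth in WT and 0 and 1 in the null; the interaction counts were 4 higher for maturation and 0 in either direction for growth. Without the ERCC scaling 3 members were lower in null GV oocytes, 2 rose from GV to MII in WT, 1 rose and 3 fell in the null, 0 fell during growth in WT, 7 rose in the null, and the growth interaction had 0 higher and 1 lower; 12 rows reached 1 FPKM in WT MII. With median scaling 1 was lower at GV and 2 at MII, 5 rose and 12 fell with maturation in WT, 12 rose and 1 fell in the null, 0 fell during growth in WT, 7 rose and 2 fell in the null, and 1 was lower in the growth interaction. With a pseudocount of 0.1 FPKM 3 rose during growth in WT, and the growth interaction had 0 higher and 1 lower. With no filter 3 rose during growth in WT, 1 rose in the null, and 1 was lower in the maturation interaction. With the compared groups alone 1 was lower at MII, 1 rose during growth in the null and 1 was lower in the growth interaction. At 5 FPKM, 9, 8 and 3 rows were reached in WT growing, GV and MII and 8, 7 and 4 in the null. Apart from the smaller number of rows tested, the cause was not tested.

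Values that changed sign were, for WT MII against GV, Hist1h1a (0.15 without the ERCC scaling, 1.05 with median scaling), Hist1h2aa (0.023, median), Hist1h2ac (0.11, median), Hist1h3a (0.027, median), Hist1h3f (0.20 and 0.76) and Slbp (1.12 and 2.07). For null MII against GV they were Hist1h1a (0.21 and 0.84), Hist1h2bc (0.36 and 1.03), Hist2h3c1 (0.32 and 0.83) and, with median scaling, Hist1h2aa (0.52), Hist1h3f (0.20), Hist1h3g (0.21), Hist1h4i (0.25) and Hist3h2ba (0.32). For null GV against growing it was Slbp (0.086, median).

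Without single libraries, 3 to 6 members rose and 1 to 3 fell during growth in WT, 1 to 3 rose in the null, 8 to 13 fell with maturation in the null, 2 to 5 were higher and 4 to 8 lower in null GV oocytes (5 and 4 without the first WT GV library), and 1 to 2 were higher in the growth and 0 to 1 lower in the maturation interaction.

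With the replicate number as a block 97 of the 100 calls held, and at GV 4 members were higher and 8 lower; the GV call of Hist4h4 was lost (-0.51, adjusted p = 0.0574, limma), as were Hist1h4i from GV to MII in the null and the maturation interaction of Hist4h4. With the numbers of the null GV libraries crossed, a setting chosen after seeing the data, 3 were higher and 8 lower at GV.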
